A study of Homo sapiens with 4 samples.

Results

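Replication origins of HCT116 cells that lay close to a RepID-binding site, but too far from it to count as bound, were examined for initiation in cells without RepID. HCT116 is a colorectal carcinoma cell line, and nascent DNA strands were sequenced from asynchronous cultures with unaltered RepID (WT) and from cultures selected as stable knockouts after CRISPR-Cas9 cutting of a RepID exon (KO). The labels and methods used here do not state whether the KO culture was 1 clone. RepID binding came from another cell line, the osteosarcoma line U2OS, in which RepID with a FLAG tag was precipitated from chromatin with an anti-FLAG antibody, so binding and initiation were not measured in the same cells. Each condition had 1 library, and the genomic DNA control of HCT116 cells was not analysed here.

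The origins were WT nascent-strand regions on chromosomes 1 to 22, narrower than 20 kb, with a gap of over 2 kb and at most 10 kb to the nearest RepID region. This rule selected 9877 of the 78859 WT regions, or 13.0% of the 76059 that lie on these chromosomes and are narrower than 20 kb. Origins at a gap of up to 2 kb, one of the windows in which the study sets initiation sites against RepID sites, are called bound in what follows and the 9877 unbound, by this distance alone. The study also uses a window of 5 kb, and 3969 of the 9877 lie within it. They were chosen by measured values, the positions and widths in the WT list and the distances to RepID regions, and their widths, scores and distances are therefore given as a description. The KO list, of 159667 regions, played no part in the choice. It is longer than the WT list and longer than the set of KO peaks the study describes, and the threshold behind it is not given in the sources used here. With 1 library per condition there are no replicates and no test between conditions, and intervals are 95% intervals that cover counting error only. Read totals are not given, the depth of each library is unknown, and a region present in only 1 list may reflect depth as well as initiation.

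A replication origin is a site at which the double helix is opened and DNA synthesis begins in both directions. Before S phase, the origin recognition complex, CDC6 and CDT1 load the minichromosome maintenance helicase at many more sites than are used in a given cell cycle, and neighbouring licensed sites can start replication in each other's place. Short RNA-primed nascent strands mark the sites that were used, because λ exonuclease degrades DNA that lacks an RNA primer. RepID, also named PHIP or DCAF14, is a WD40-repeat protein with bromodomains that associates with the CUL4-DDB1 ubiquitin ligase and was found through its binding to a replicator of the beta-globin locus. An unbound origin beside a RepID-bound one offers a view of whether the 2 kinds of origin, on the same stretch of chromosome, are found together or apart in cells without RepID.

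By width, the unbound origins near RepID had a median of 2600 bp, with quartiles at 1600 and 4600 bp. Origins overlapping a RepID region had a median of 3200 bp, those 10 to 50 kb from RepID 2400 bp, and those over 10 kb away as a whole 2200 bp. The score of a region, a whole number whose meaning the authors do not state, had a median of 128 with quartiles at 71 and 307. For origins overlapping RepID the median score was 293, and for those over 10 kb away it was 101. The score per kb of region had a median of 57 near RepID and 90.4 at origins overlapping RepID. In width, score and score per kb, the unbound origins near RepID thus lay close to those 10 to 50 kb away (2400 bp, 118 and 55.4) and well below the origins that overlap RepID. Origins within 2 kb without overlap, called bound here by distance, had similar medians (2400 bp, 120 and 57.7). The step was therefore between overlap and no overlap. A wide region is more likely to overlap a RepID region by its extent alone, and the part of this in the step was not tested. Within the range of 2 to 10 kb itself, median scores ran only from 123 at 8 to 10 kb to 131 at 2 to 4 kb.

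**Figure D1:**
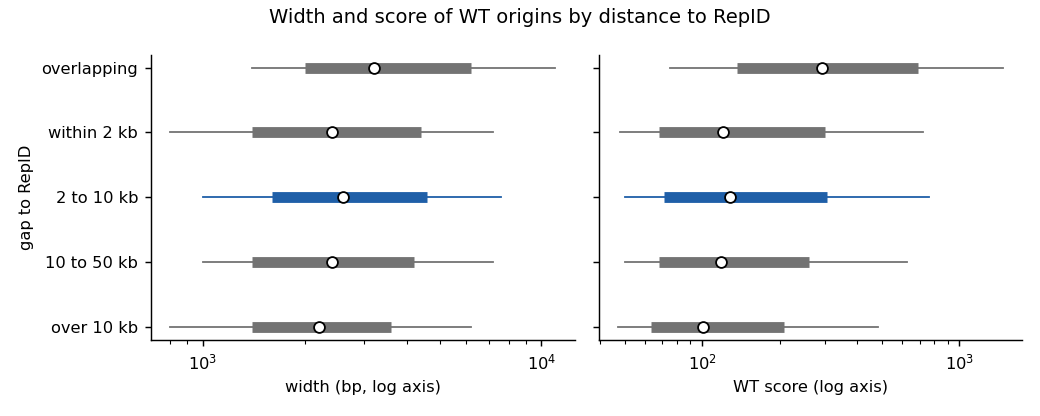
Width in bp (left) and WT score (right) of WT origins, both on log axes, in 5 classes of gap to the nearest RepID region; the thin line spans the 10th to 90th percentile, the thick bar the quartiles and the open circle the median. The origins 2 to 10 kb from RepID (blue; medians 2600 bp and 128) lie near the more distant classes and below the overlapping class (3200 bp and 293), and the class over 10 kb includes that of 10 to 50 kb.

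At the edges of the rule, the origin with the largest gap that still counted as bound lay on chromosome 10 from 126153001 to 126153800, 2000 bp from RepID with a score of 55, and no KO region overlapped it. Just inside, 2 origins lay 2004 bp away. The one on chromosome 2 from 30489801 to 30493200 (score 164) had a KO region, and the one on chromosome 18 from 74809201 to 74812000 (score 81) had none. At the far edge, an origin on chromosome 9 from 124393401 to 124403400 lay 10000 bp away with a score of 927 and a KO region. Just outside, 2 origins of chromosome 6 lay 10001 bp away, one from 33574401 to 33579200 (score 467) without a KO region and one from 150750601 to 150753000 (score 88) with one. The width limit left out 126 further origins, the narrowest of 20000 bp.

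The unbound origins near RepID were not spread evenly over the chromosomes. They made up 21.4% of the origins of chromosome 22 and 20.6% of those of chromosome 19, but 4.90% on chromosome 21 and 6.97% on chromosome 4. The median gap to RepID was 5747 bp, and the 9877 origins shared 7327 nearest RepID regions. These RepID regions had a median MACS score of 189, close to the 198 of the whole RepID list. For 773 origins (7.83%) a RepID region lay within 10 kb on both sides.

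An origin was taken as kept when the KO list held a region with at least 1 bp in common with it. Of the 9877 unbound origins near RepID, 5792 were kept (58.6%, 57.7 to 59.6%), and 4085 were not. Over all 76059 origins on chromosomes 1 to 22 under 20 kb, the kept share was 61.1%, so the share near RepID was slightly below that background. A KO region lay over the centre of 4346 of them (44.0%, 43.02 to 44.99%), against 45.9% of all origins, and KO regions covered at least 50% of 4369 (44.2%, 43.3 to 45.2%), against 46.6% of all origins. With only the highest-scoring KO regions used, 78859 of them as in the WT list, the kept share was 41.8%.

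Among the origins near RepID, the distance to RepID made little difference to the share kept. It was 57.9% (56.0 to 59.8%) at 2 to 4 kb, 58.8% (56.8 to 60.6%) at 4 to 6 kb, 58.8% (56.8 to 60.8%) at 6 to 8 kb and 59.1% (57.04 to 61.2%) at 8 to 10 kb, and these intervals overlap one another. The share of centres with a KO region ran from 43.2% to 45.1% over the same classes. Beyond 10 kb, the kept share was 59.3% at 10 to 20 kb, 61.8% at 20 to 50 kb, 64.4% at 50 to 100 kb and 67.6% at 100 to 300 kb, and it was lower again, at 61.8%, over 300 kb from RepID. The MACS score of the nearest RepID region moved with the kept share only in its highest quartile, where 61.2% (59.2 to 63.1%) were kept, against 57.3% (55.4 to 59.3%) in the lowest. Of the origins with RepID within 10 kb on both sides, 55.2% (51.7 to 58.8%) were kept, and of those with RepID on 1 side 58.9% (57.9 to 59.9%).

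**Figure D2:**
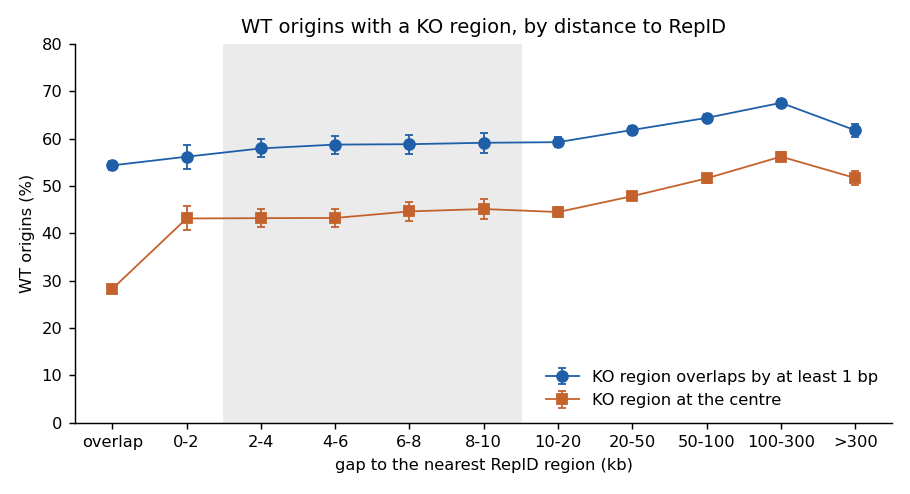
Share of WT origins (%) with a KO region, by gap to the nearest RepID region in kb, for overlap by at least 1 bp (blue circles) and for a KO region at the centre of the origin (orange squares); bars are exact binomial 95% intervals. Between 2 and 10 kb (shaded) both shares are nearly flat, at 57.9 to 59.1% and 43.2 to 45.1%, and the step between overlapping origins and all others is in the share of covered centres.

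Set against origins bound by RepID, the unbound origins near RepID were kept more often, 58.6% against 54.6% for origins with a gap of at most 2 kb, overlapping ones included. The difference was 4.07 percentage points (Newcombe interval 2.79 to 5.35) and had the same sign on 20 of 22 autosomes. In covered centres the difference was far larger, 14.1 points (12.8 to 15.3), with the same sign on 21 of 22 autosomes. Almost all of this came from origins that overlap RepID, with 28.3% of centres covered. Positions 15 to 20 kb from the RepID regions nearest the unbound origins had a similar KO share, 28.1% and 27.9% on either side. These positions were not taken around all overlapping origins. WT regions were present at 39.8% and 39.4% of them, so they are no baseline free of origins. By centres, overlapping origins stood near that level, although 54.4% were kept by 1 bp. What such overlap means for initiation at the origin was not tested, nor was its share by position alone. For its own bound origins, the study describes a very low rate of firing once RepID was depleted. The study used a shorter set of KO peaks than the list here and plotted them by distance from the centres of bound origins. The shares given here are therefore not on its scale. Origins that lay within 2 kb of RepID without overlapping it had 43.1% of centres covered, 0.852 points below the origins 2 to 10 kb away, an interval of the difference of -1.84 to 3.51 that includes 0. Against the 52561 origins over 10 kb from RepID, those near RepID were kept less often, by -4.62 points (-5.68 to -3.57), with the same sign on 19 of 22 autosomes. The difference from origins 10 to 50 kb away alone was -2.27 points (-3.42 to -1.13). Weighted to the scores and widths of the origins near RepID, the comparison gave 6.25 points against bound origins and -5.96 points against distant ones, so the intermediate place held in both weighted comparisons.

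Wide origins were more often touched by a KO region, but the share covered at their centre changed little up to 10 kb and was lowest in the widest class. The kept share was 44.97% (41.7 to 48.3%) for the 885 origins near RepID under 1 kb, 55.4% from 2 to 3 kb, 73.3% from 5 to 10 kb and 78.8% (75.2 to 82.1%) for the 575 from 10 to 20 kb. The share of covered centres was 42.1% under 1 kb, 46.1% from 3 to 5 kb, 45.4% from 5 to 10 kb and 36.5% from 10 to 20 kb. By score, the kept share went from 44.9% (41.7 to 48.2%) below 50 to 74.5% (71.0 to 77.7%) from 1000 upwards, and the share of covered centres from 41.2% to 34.3%. The median kept origin was 3000 bp wide with a score of 150, and the median origin that was not kept 2000 bp with a score of 106.

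The KO regions at these origins are described by the highest-scoring one at each kept origin. Taking the highest, and overlap itself, favour wide and high-scoring regions, so its distance from the KO list as a whole is no finding. It was 4000 bp wide in the median, against 3000 bp in the whole KO list, with a score of 178 against 130. On the scale of percentiles of the KO list, the median was 72.5 at the kept origins near RepID, 66.0 at kept origins that overlap RepID, 76.0 at those over 10 kb away and 74.1 over all kept origins. A single KO region overlapped 5050 of the kept origins (87.2%). KO regions covered a median of 80.2% of a kept origin, and 2197 (37.9%) were covered from end to end. The origins that were not kept lay at a median gap of 4600 bp from the nearest KO region. For 1129 of them (27.6%) a KO region lay within 2 kb, and for 913 (22.4%) none lay within 10 kb. The same 2 shares were 30.6% and 22.9% for origins over 10 kb from RepID that were not kept.

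The kept share also differed between chromosomes by more than counting error. It was lowest on chromosome 19, where 291 of 814 origins near RepID were kept (35.7%, 32.5 to 39.2%), and 45.5% (40.9 to 50.1%) on chromosome 7. It was highest on chromosome 17, with 507 of 694 (73.1%, 69.6 to 76.3%), and on chromosome 8, at 72.8%. All origins of these chromosomes under 20 kb moved with them, at 42.0% on chromosome 19, 50.8% on chromosome 7, 70.9% on chromosome 17 and 75.5% on chromosome 8. Without chromosome 19 the kept share near RepID was 60.7% (59.7 to 61.7%).

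Around the nearest RepID region, KO regions were distributed unlike WT regions. Positions were read every 200 bp from the RepID edge that faces the unbound origin, with the origin placed on the left. A WT region was present at 85.8% of sites 400 bp into the RepID side, which is where KO regions were least frequent, at 21.9%. On the side of the unbound origin, from 2 to 10 kb, KO regions were present at 33.4% of positions on average, and at the mirrored positions on the other side at 28.4%. The most frequent position, at 35.4%, lay 7800 bp from RepID on the side of the unbound origin. At 15 to 20 kb the mean was 28.1% on the side of the origin and 27.9% on the other. KO regions were thus somewhat more frequent than in the surroundings over the unbound origins and less frequent at the RepID site itself, where WT regions were most frequent. The rule places a WT origin on the left, so the WT curve there is not a result. KO regions overlapped 61.1% of all origins on chromosomes 1 to 22 under 20 kb. A KO excess on the side where the rule places an origin therefore says nothing particular about these origins.

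**Figure D3:**
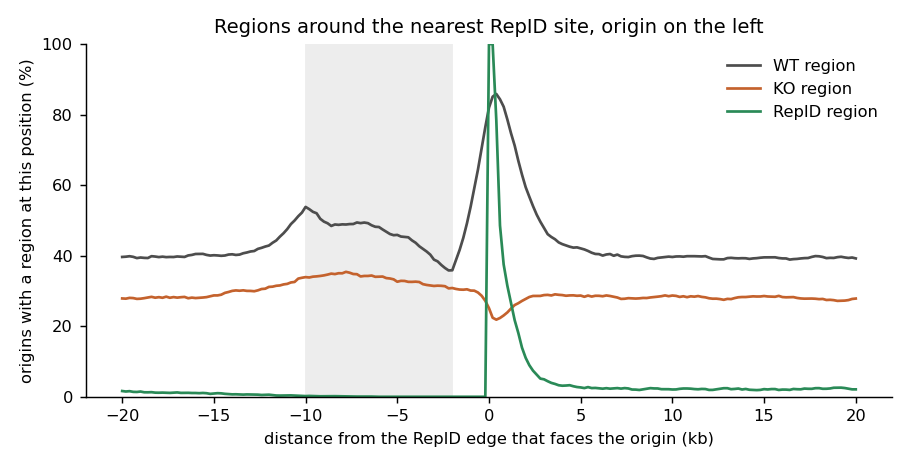
Share (%) of the 9877 sites with a WT (grey), KO (orange) or RepID region (green) at each position, by distance in kb from the RepID edge that faces the unbound origin; the shaded range of 2 to 10 kb is where the rule places the facing edge of the origin. The KO curve has its low point of 21.9% just inside the RepID site and its high point of 35.4% over the unbound origins.

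For 9132 of the unbound origins (92.5%), the nearest RepID region had a WT origin of its own at a gap of at most 2 kb. This RepID-bound neighbour was the closest such origin to the unbound one. There were 6406 different neighbours, of which 5760 (89.9%) overlapped a RepID region directly and 342 (5.34%) were at least 20 kb wide. A neighbour had 1 such unbound origin beside it in 4251 cases, 2 in 1666 and more in 489. The gap between the paired origins had a median of 3400 bp, with quartiles at 1600 and 5800 bp, and in 7703 pairs (84.4%) no other WT origin lay between them. The smallest gap, 800 bp, is also the smallest between any 2 regions of the WT list, and at that distance the division into 2 origins rests on how regions were merged when they were called.

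The unbound origin was usually the weaker of the pair. Its score was below that of its neighbour in 6741 pairs (73.8%), with a median of 41.6% of the score of the neighbour, and it was narrower in 6093 (66.7%). The median neighbour was 4200 bp wide and had a score of 393. In spite of this, the 2 were kept about equally often by the criterion of 1 bp, 5375 of 9132 unbound origins (58.9%, 57.8 to 59.9%) and 59.1% (58.1 to 60.1%) of neighbours counted per pair. The paired difference was -0.230 points with a Wald interval of -1.53 to 1.07. By covered centres the unbound origin was kept more often, 43.8% against 32.2%, a difference of 11.6 points (10.3 to 12.9). When at least 50% had to be covered, the difference was 12.3 points (11.04 to 13.6). By 1 bp of overlap, which favours the wider of a pair, it was 22.3 points (20.2 to 24.5) in the pairs whose unbound origin was at least as wide as its neighbour and -11.5 points (-13.0 to -9.92) in those where it was narrower. The answer to which of the pair is kept more often therefore depended on how much of an origin had to be covered and on which of the pair was wider.

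The 745 unbound origins without a WT origin at their RepID region were narrower and scored lower, with medians of 2000 bp and 90. The RepID regions near them had a median MACS score of 140, against 195 for those with a neighbour. They were kept in 56.0% of cases (52.3 to 59.6%), an interval that overlaps that of the origins with a neighbour.

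An unbound origin was kept more often when its RepID-bound neighbour was overlapped by a KO region. Of the 5396 unbound origins with such a neighbour, 3553 were kept (65.8%, 64.6 to 67.1%). Of the 3736 whose neighbour had no KO region, 1822 were kept (48.8%, 47.2 to 50.4%). The difference was 17.1 points (15.03 to 19.1) and had the same sign on all 22 autosomes, from 5.17 points on chromosome 18 to 55.0 on chromosome 21, which has only 43 pairs. Median widths (2600 bp in both groups) and scores (133 and 131) of the unbound origins were alike in the 2 groups, but median neighbour widths were 5400 bp with a KO region and 3200 bp without. After weighting by score and width of the unbound origins, the difference was 17.0 points, and with 1 unbound origin per neighbour it was 18.6.

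KO coverage of the wider surroundings moved with this difference. From 20 to 100 kb on either side of the unbound origin, KO regions covered 30.4% of the sequence on average where the neighbour had a KO region and 22.3% where it had none. Compared within 5 equal-sized classes of this coverage, the difference was 11.3 points, and within autosomes it was 14.4. From the class with the least KO coverage to that with the most, it was 12.5, 10.5, 6.62, 10.8 and 17.9 points. Single KO regions were long enough to reach both origins in 956 pairs, or 26.9% of those with both kept. With such regions left out, an origin touched by no other KO region counted as not kept. Then 55.4% and 44.7% were kept and the difference was 10.7 points (8.64 to 12.7). With both steps together, within classes of coverage, it was 8.003 points. With those 956 pairs removed instead, it was 9.72 points (7.56 to 11.9).

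Up to a gap of 10 kb between the origins, the difference grew smaller as the gap grew. At a gap of up to 2 kb, 67.5% of the unbound origins were kept beside a neighbour with a KO region and 42.0% beside one without, a difference of 25.5 points (21.8 to 29.2). It was 19.2 points (15.2 to 23.2) at 2 to 4 kb, 11.4 (6.94 to 15.9) at 4 to 6 kb, 11.3 (6.05 to 16.6) at 6 to 8 kb and 5.79 (-1.91 to 13.4) at 8 to 10 kb, where the interval includes 0. Over 10 kb there were 34 pairs, with 17.4 points (-15.9 to 45.9). Most of the change up to 10 kb was on the side of the neighbours without a KO region, whose unbound partners were kept in 42.0% of cases up to 2 kb and 58.2% at 8 to 10 kb, while those beside a neighbour with a KO region stayed between 63.6% and 67.5%. With KO regions that reach both origins left out, no steady fall was seen up to 8 kb, with 9.93 points (6.37 to 13.5) up to 2 kb, 13.5 at 2 to 4 kb, 10.6 at 4 to 6 kb, 10.1 at 6 to 8 kb and 5.09 at 8 to 10 kb.

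Pairs of origins with no RepID region near either of them showed the same kind of dependence, and more of it. For 35998 origins over 10 kb from RepID whose nearest WT origin was also over 10 kb from RepID and at most 10 kb away, 73.6% were kept when that partner had a KO region and 48.6% when it had none. This difference was 25.002 points (23.95 to 26.0), and that beside RepID-bound neighbours minus that in distant pairs was -7.93 points (-10.2 to -5.64). The 2 kinds of pair were built differently. Distant origins that were each other's nearest could enter in both roles, whereas roles were fixed in pairs near RepID. The distant partner was always the adjacent origin, which held for 84.4% of pairs near RepID. At a gap of up to 2 kb the difference was 32.7 points in distant pairs and 25.5 beside RepID-bound neighbours, a contrast of -7.15 (-11.1 to -3.24). At the larger gaps the intervals of the contrast included 0 as long as all KO regions were counted. At 2 to 4 kb the contrast was above 0, at 0.421 points (-4.20 to 4.98). Weighted to the gaps of the pairs near RepID, the difference in distant pairs was 21.0 points. Single KO regions over both origins were more common in the distant pairs, 21.3% against 10.5% of pairs. With these regions left out, though not the pairs, the contrast was -10.8 points (-13.0 to -8.49). By gap the contrast was then -6.61 (-11.2 to -2.09) at 2 to 4 kb, -5.995 (-11.4 to -0.590) at 4 to 6 kb and -7.29 (-13.9 to -0.729) at 6 to 8 kb, and at 8 to 10 kb the interval included 0. Origins touched only by such a region counted here as not kept. Pairs with neither kept thereby rose from 1914 to 2381 near RepID and from 6314 to 11862 in distant pairs. These contrasts depend on that counting, and the contrast with such pairs removed was not computed. Partners in distant pairs were narrower, with medians of 2800 and 2000 bp with and without a KO region, and the part of width in the contrast was not tested.

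**Figure D4:**
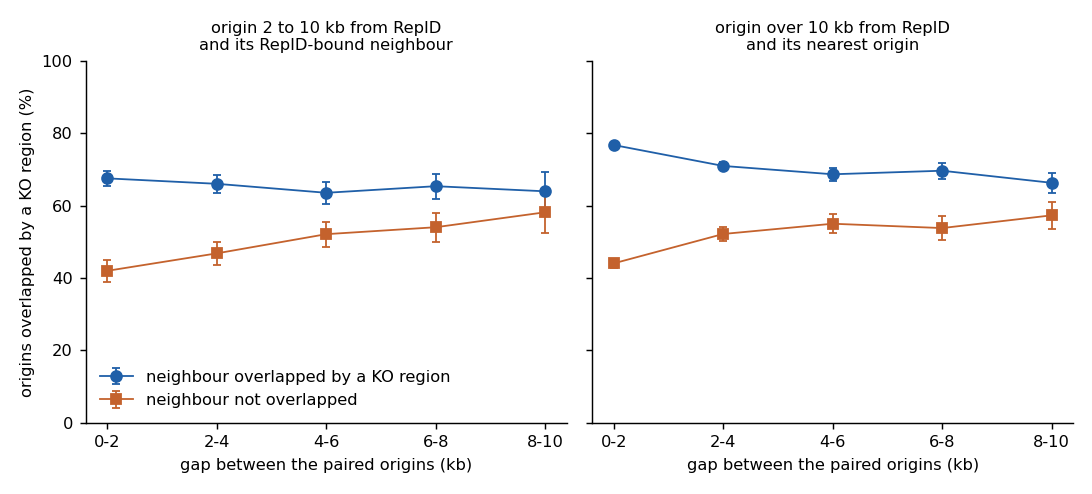
Share (%) of origins overlapped by a KO region, by the gap in kb to the paired origin, when that paired origin was (blue circles) or was not (orange squares) overlapped by a KO region; left, unbound origins 2 to 10 kb from RepID with their RepID-bound neighbour, right, origins over 10 kb from RepID with their nearest origin. Bars are exact binomial 95% intervals. The distance between the curves falls from 25.5 points at up to 2 kb to 5.79 at 8 to 10 kb on the left, and from 32.7 to 8.99 on the right.

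The 9132 pairs fell into 4 classes, with both origins kept in 3553 (38.9%), only the unbound origin in 1822 (19.95%), only the RepID-bound neighbour in 1843 (20.2%) and neither in 1914 (21.0%). Of the 35998 distant pairs, both were kept in 17454, only the origin in 5970, only its partner in 6260 and neither in 6314. Pairs with only 1 origin kept were thus also common where no RepID region was near. The class in which only the unbound origin was kept is the pattern of an initiation site that is found without RepID while the bound site beside it is not. Its mirror image was as frequent by the criterion of 1 bp only, which favours the wider of a pair. By covered centres the unbound origin was kept more often by 11.6 points, and by coverage of at least 50% by 12.3 points. Neighbours were narrow and scored low where only the unbound origin was kept, with medians of 3000 bp and 242, and wide and high where only the neighbour was kept, at 5800 bp and 597. The unbound origins themselves had median scores of 158 and 104 in these 2 classes. The MACS score of the nearest RepID region was nearly the same in all 4 classes, with medians from 191 to 197. Chromosome 19 held 15.8% of the pairs with neither kept and 4.14% of those with both.

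The KO list often placed a region in the space between the paired origins. This was so in 2849 of the pairs with both kept (80.2%, 78.8 to 81.5%), in 54.7% (52.4 to 57.02%) of those with only the unbound origin kept, in 37.6% (35.4 to 39.9%) of those with only the neighbour kept and in 8.99% (7.74 to 10.4%) of those with neither. This order follows in part from the classes themselves, because a KO region over both origins fills the space between them and one beside 2 origins that were not kept must avoid both. The space also differed in length, with a median of 4200 bp where only the unbound origin was kept and 3400 bp where only the neighbour was. The part of this length was not tested. At kept unbound origins, the centre of the KO region lay on the side of the neighbour in 2637 cases and on the far side in 2602, so no shift towards RepID was seen over all pairs. It lay towards the neighbour in 52.9% (51.2 to 54.5%) where the neighbour had a KO region and in 41.6% (39.3 to 43.9%) where it had none. Both values are shaped by the definition of their class. The first includes the 956 pairs with a single KO region over both origins, which extends towards the neighbour. In the second, a KO region that reached the neighbour would have put the pair in the other class. The share without KO regions over both origins was not computed.

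The 4 unbound origins with the highest scores in each class show what these patterns look like along the chromosome. Positions are on hg19, counted from 1. With both kept, the highest score was 7757, on chromosome 16 from 15010401 to 15030200, 2750 bp from a RepID region at 15007262 to 15007650 (MACS score 174.5). Its neighbour, from 15004001 to 15008800 (score 692), shared bases with a KO region at 15006001 to 15008000, and 3 KO regions covered 49.5% of the unbound origin. On chromosome 17, an unbound origin from 72942201 to 72961800 (score 6286) was covered over 94.9% of its length, with a KO region from 72941001 to 72954000 that has a score of 709 and lies at percentile 99.1 of the KO list. Its neighbour, 1600 bp away from 72963401 to 72969800, was covered over 34.4%. The next highest lay on chromosome 16 from 89098401 to 89112000 (score 5184). The last, with a score of 5046, was at 75365201 to 75380800 of chromosome 17.

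With only the unbound origin kept, the highest score was 5250, on chromosome 11 from 63758601 to 63777600. It was separated by 800 bp from its RepID-bound neighbour at 63746401 to 63757800 (score 586), which had no KO region, and its own KO regions covered 21.1% of it. The one of the 4 with the most KO coverage lay on chromosome 15 from 102504201 to 102519600 (score 4537), where KO regions covered 92.2% of the unbound origin. The larger of them, from 102502601 to 102513200 with a score of 802, is at percentile 99.4 of the KO list, and it begins at the base after the end of the neighbour, which runs from 102500401 to 102502600 (score 630). An unbound origin on chromosome 16 from 28883001 to 28897600 was covered over 27.4%, and one at 35528201 to 35537400 of chromosome 19 over 37.0%.

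With only the neighbour kept, the highest scores were 3578, 3550, 3460 and 3442. On chromosome 16, an unbound origin from 30193801 to 30201000 (score 3550) had its nearest KO region 1200 bp away, while 3 KO regions covered 84.6% of its neighbour from 30202201 to 30223000 (score 3953). In the other 3 the neighbour was covered over 43.3% (chromosome 19 from 10200201 to 10206200), 2.63% (chromosome 1 from 9684201 to 9691800) and 7.14% (chromosome 7 from 63026401 to 63037600). The criterion of 1 bp thus placed pairs in this class whose neighbours were covered over only a few percent of their length.

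With neither kept, the highest score was 8610, the highest of all 9877, on chromosome 16 from 3034001 to 3052400. It lay 2274 bp from a RepID region and 800 bp from a neighbour of 21400 bp, from 3053201 to 3074600 (score 4403), and its nearest KO region was 2000 bp away. On chromosome 9, an unbound origin from 138667801 to 138686400 (score 6124) and its neighbour from 138646001 to 138665200 (score 5485) both had no KO region, and the nearest to the unbound origin was at 6200 bp. Chromosome 11 held another from 717201 to 730400 (score 4707), and chromosome 22 one from 20930801 to 20946400 (score 4229). High scores in WT cells were therefore found in all 4 classes, and these 16 were the wide and strong extreme of the origins near RepID, from 7200 to 19800 bp.

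**Figure D5:**
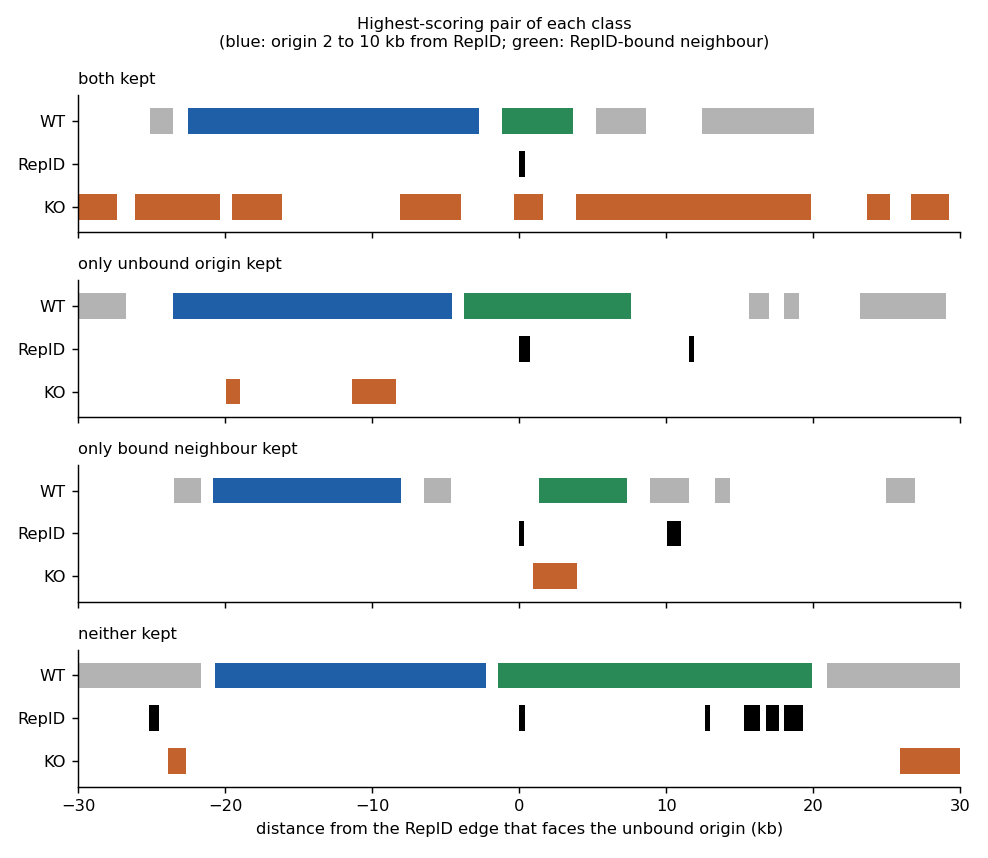
WT, RepID and KO regions within 30 kb of the nearest RepID region for the highest-scoring unbound origin (blue) of each of the 4 classes, with its RepID-bound neighbour (green) and other WT regions (light grey), as distance in kb from the RepID edge that faces the unbound origin. KO regions (orange) cover 49.5% of the unbound origin in the pair with both kept and 21.1% in the pair with only the unbound origin kept, and none overlaps it in the other 2.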

How the data were processed

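The authors deposited 1 list of enriched regions per library, giving each region its position and a score, on hg19 according to the submitters' processing notes, which also name SICER and MACS. RepID regions were called by the authors with MACS against genomic input. The programme used for HCT116 nascent strands is not given in the sources used here. All nascent-strand regions lie on a grid of 200 bp. Scores were compared only within a list.

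Gaps, overlaps and coverage were computed in Python 3.11.15 with numpy 2.4.6, pandas 2.3.3 and SciPy 1.17.1, and tested on simulated data against bedtools 2.31.1. Shares have exact binomial and differences Newcombe or paired Wald 95% intervals, which take regions as independent although neighbours are not. Weighting matched deciles of score and width. Named origins were the 4 with the highest WT score in each class of pairs, at most 1 per neighbour and none on chromosome 8, and those at the edges of the rule. The origins and comparisons were chosen with earlier results of these data known. No genome or annotation on hg19 was used here, so no sequence or gene is given. Alternatives varied the criterion of keeping, both lists, the neighbour and the weighting.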

Additional observations from a re-analysis of the deposited data

How the results depend on the processing

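Of 42 alternatives, 13 stayed within the 95% interval of the value reported or, for counts of origins, within 1.5 times, and 29 moved. No difference whose interval excluded 0 changed sign. The difference from neighbours, -0.230 with an interval around 0, was above 0 in 5 of its 6 alternatives, at 1.06 with the shorter KO list and 0.449 with the stricter RepID list. When at least 50% of an origin had to be covered, the kept share was 44.2%, its differences from origins within 2 kb, origins over 10 kb and neighbours were 14.2, -7.14 and 12.3 points, and that by state of the neighbour was 20.7. With a KO region at the centre, these were 44.0%, 14.1, -6.34, 11.6 and 14.4, and 19.6 in distant pairs. With the KO list shortened by score to the length of the WT list, the kept share was 41.8%, the difference from origins within 2 kb 6.01, that by state of the neighbour 26.3 and that in distant pairs 35.2. RepID regions at or above the median score gave 6484 origins and a difference from distant origins of -3.39, an upper gap of 5 kb gave 3969 origins and the stricter WT threshold 5113. Without KO regions over both origins, the difference by state of the neighbour was 10.7, and 21.5 in distant pairs. Weighting by score and width gave 6.25 and -5.96 against bound and distant origins, and pairs with an unbound origin at least as wide as its neighbour gave 22.3. Chosen after the data were examined, the values within autosomes (14.4), within classes of local KO coverage (11.3, or 8.003 without KO regions over both origins), in pairs with a narrower unbound origin (-11.5) and weighted to the gaps near RepID (21.0) moved as well. No paired analysis was possible because each condition has 1 library. With depth unknown, absence from 1 list may reflect fewer reads.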

Other observations

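In 859 cases exactly 2 unbound origins lay on opposite sides of the same RepID-bound neighbour. Where the neighbour had a KO region, both flanking origins were kept in 256 of 524 cases (48.9%), 1 in 194 and none in 74 (14.1%). Where it had none, both were kept in 86 of 335 (25.7%), 1 in 151 (45.1%) and none in 98 (29.3%). The most unbound origins at 1 neighbour was 5, and 7 neighbours had that number. At the neighbour on chromosome 1 from 34628401 to 34634200 (score 1125) and at that on chromosome 6 from 37659601 to 37668600 (score 1187), no KO region overlapped the neighbour and all 5 unbound origins were kept. At one on chromosome 19 from 42827001 to 42831800 (score 1036), also without a KO region, 2 of 5 were kept. At one on chromosome 2, likewise without a KO region, 4 of 5 were kept. The neighbours with a KO region lay on chromosomes 8, 10 and 22, where 5, 3 and 3 of the 5 were kept.

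Among the unbound origins near RepID, 7 had a score of over 400 per kb, a limit chosen after the values were seen, and 4 of the 7 were kept. A region of 200 bp on chromosome 10, from 99438601 to 99438800, had a score of 1441, and one of 400 bp on chromosome 21, from 34949801 to 34950200, a score of 974. Their scores per kb of 7205 and 2435 compare with a median of 57 over the origins near RepID, and both were kept. The next, on chromosome 5 from 83201 to 86000, had 1198 per kb and was not kept.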
